A study of Mus musculus with 13 samples.

Results

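Transcripts of 8 genes that mark the mitral and tufted cells of the mouse olfactory bulb were followed through 13 RNA-seq libraries. The genes were taken by symbol from a table of 34745 genes. They are Tbx21, Eomes, Cdhr1, Slc17a7, Slc17a6, Reln, Tbr1 and Nrp1. Each symbol matched 1 gene, and all 8 genes passed the filter on low counts. The libraries came from whole olfactory bulb of wild-type C57BL/6 mice labelled as male and 7 to 8 weeks old. The 1st set held 3 libraries of mice given fine airborne particulate matter (PM2.5) at 3 mg/kg (the low dose) and 4 libraries of untreated controls. The 2nd set held 3 libraries of mice given PM2.5 at 10 mg/kg (the high dose) and 3 libraries of untreated controls. Both doses are labelled "/3 day", and the labels state neither the route nor what parted the sets. Exposed libraries were set against controls of the same set only, because dose and set cannot be told apart. The labels do not say whether samples of a group are separate animals, and a p-value covers no more than the variation among these libraries.

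Mitral and tufted cells are the glutamatergic output neurons of the olfactory bulb. Their primary dendrites receive the axons of olfactory sensory neurons in the glomeruli, and their own axons run in the lateral olfactory tract to the anterior olfactory nucleus and the piriform cortex. T-box transcription factors specify and maintain these cells, vesicular transporters load their transmitter, and they secrete reelin. Of the markers, Tbx21 is nearly restricted to these cells within the brain, whereas Tbr1 and Slc17a7 are also expressed by excitatory neurons of the anterior olfactory nucleus and the cortex. In bulk RNA, fewer cells of a type and less RNA per cell cannot be told apart.

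Total counts ran from 14336721 to 14665696 in the low-dose libraries and from 13032834 to 14095284 in their controls. They ran from 20227176 to 25548559 in the high-dose libraries and from 15387870 to 26989267 in their controls. The smallest count of any marker was 187 (Tbr1 in low-dose replicate 2). Libraries of the 1st set went against their label of male mice: Xist, which coats the silenced X of female cells, had 2250 to 2710 CPM there but 0.0992 to 0.555 CPM in the 2nd set. Y-linked genes (4 summed) had 0 to 0.21 CPM there but 177 to 230.0 CPM in the 2nd set. In the 2nd set 2 libraries stood apart, control replicate 2 and high-dose replicate 3, the 2 most deeply sequenced, and values without them stand beside many of the high-dose results. For the gene lists this was chosen after seeing the data.

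No marker was called at either dose in edgeR, and the 95% intervals of the fold changes of 7 of the 8 lay within 0.687 to 1.38 at both doses. Tbr1 differed most from its controls at both doses, with a higher mean at the high dose and a lower mean at the low dose. At the low dose 0 of 8 markers passed an adjusted p of 0.05 in edgeR's quasi-likelihood test, beside 0% of the 17467 genes tested. By unadjusted p under 0.05 the counts were 0 of 8 markers and 2.46% of all genes (429), and neither DESeq2 nor limma called a marker, beside 0.109% and 0.00996% of all genes they tested. At the high dose 0 of 8 passed, beside 0.641% of all genes (112), and 1 of 8 (Tbr1) had an unadjusted p under 0.05, beside 9.65% of all genes. DESeq2 called that 1 marker, beside 1.67% of all genes (291), and limma called none, beside 0.353%.

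**Figure D1:**
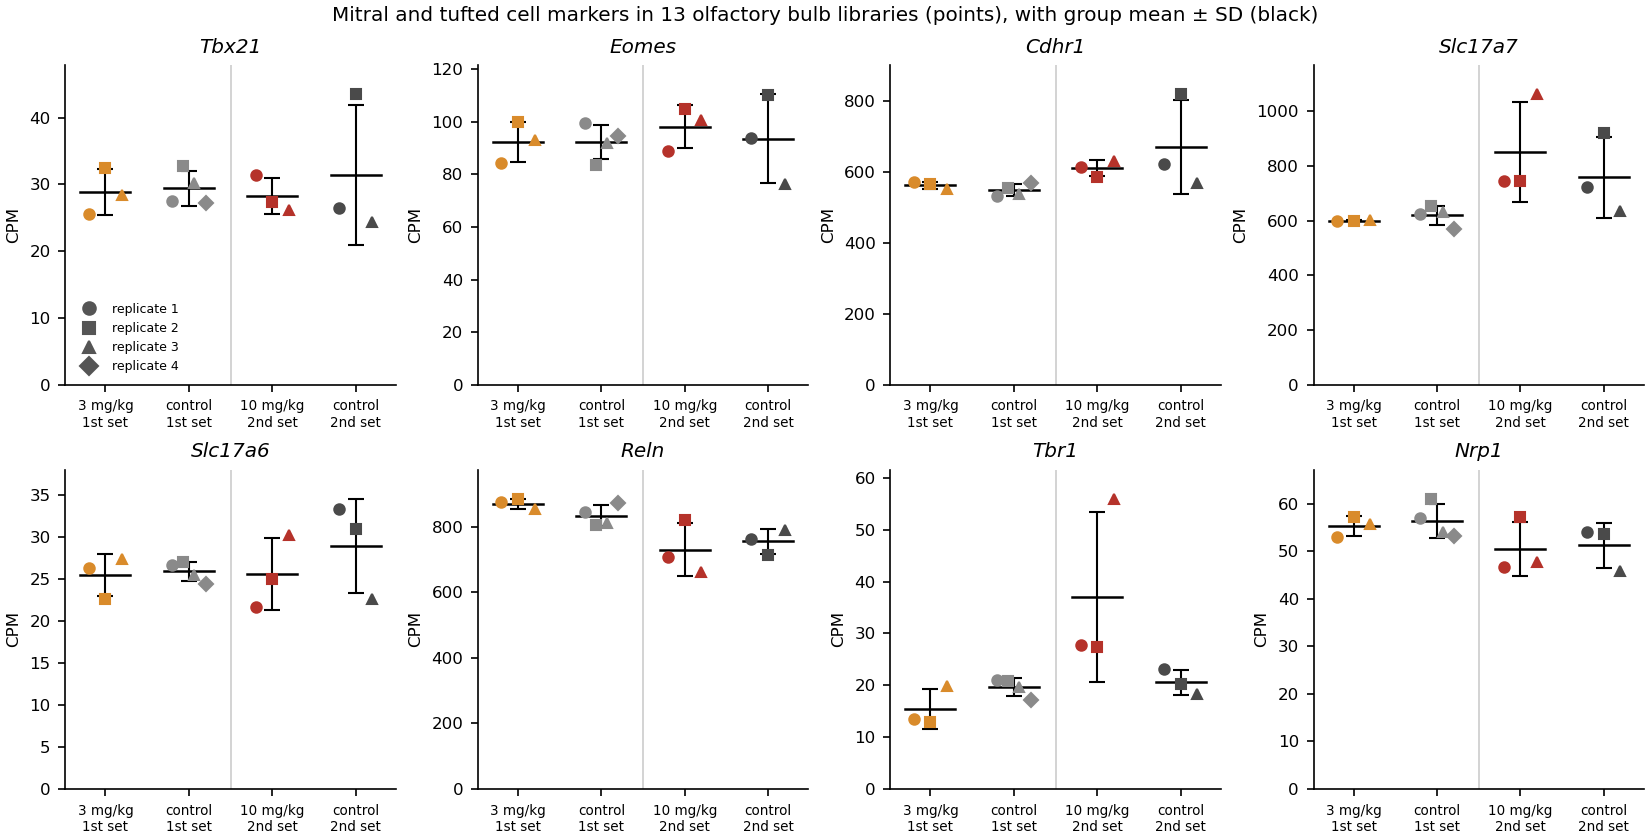
Normalised level of each marker in every library, in CPM (counts scaled to depth, linear axes from 0), with 1 panel per gene, a point per library, and the group mean and SD in black. The exposed and control points overlap in every panel except Tbr1 in the 2nd set, where high-dose libraries reach 27.4 to 56.0 CPM and their controls 18.3 to 23.1 CPM.

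Tbx21 (ENSMUSG00000001444, mm10 chromosome 11, 97098071 to 97115331, minus strand) encodes T-bet, a T-box factor known in the immune system from type 1 helper T cells and in the bulb from mitral and tufted cells. It stood at 25.5, 32.4 and 28.5 CPM in low-dose libraries, against 27.4, 32.8, 30.2 and 27.1 CPM in their controls. It stood at 31.4, 27.4 and 26.2 CPM in high-dose libraries, against 26.5, 43.5 and 24.4 CPM in their controls. The groups overlapped at both doses, and the highest and the lowest of all 13 values were both controls of the 2nd set. The log2 fold change was -0.03 at the low dose (SE 0.17) and -0.16 at the high dose (SE 0.18), with edgeR adjusted p of 1 and 0.885. The high-dose value depended on single controls: without control replicate 2 it was 0.14, and without control replicate 3 it was -0.31.

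Eomes (ENSMUSG00000032446, chromosome 9, 118478212 to 118486132, plus strand), also called Tbr2, encodes the T-box factor that directs the differentiation of mitral and tufted cells and marks intermediate progenitors in the developing cortex. Low-dose libraries held 84.4, 99.8 and 92.9 CPM, against 99.5, 83.7, 92.0 and 94.5 CPM in their controls. High-dose libraries held 89.1, 104.8 and 100.7 CPM, against 93.9, 110.4 and 76.5 CPM in their controls. Again the exposed values lay among the control values. Mean levels at the low dose were 92.4 ± 7.74 CPM in exposed and 92.4 ± 6.57 CPM in control libraries (SD, n = 3 and n = 4). The log2 fold change at the high dose was 0.07 (SE 0.12, edgeR adjusted p = 0.942), and it was -0.06 without control replicate 3. Exons of Eomes share 118 bases with those of the antisense gene Gm33460, and the strand setting of the counting is not given in the sources used here.

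Tbr1 (ENSMUSG00000035033, chromosome 2, 61802930 to 61814114, plus strand) is the third T-box marker and is known from the specification of deep-layer cortical projection neurons as well as from the bulb. It was the marker whose libraries differed most, with 4.32 times as many CPM in the highest library as in the lowest. High-dose libraries held 27.7, 27.4 and 56.0 CPM, against 23.1, 20.3 and 18.3 CPM in their controls. All 3 high-dose libraries were above all 3 controls, and 1 of them stood far above the others. Tbr1 was the 1 of 8 markers whose groups did not overlap at the high dose, beside 10.4% of all genes (6.08% higher and 4.36% lower). The means were 37.1 ± 16.4 CPM in high-dose and 20.6 ± 2.42 CPM in control libraries (SD, n = 3 each). The log2 fold change was 0.85 (SE 0.25, 95% interval 0.32 to 1.38), with an edgeR adjusted p of 0.182 (0.00392 before adjustment). By p, Tbr1 ranked 377 among the genes tested. DESeq2 gave the same log2 fold change of 0.85 with an adjusted p of 0.0452, the 1 of 23 alternatives in which Tbr1 passed at this dose.

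In the 1st set Tbr1 stood at 13.6, 12.97 and 19.8 CPM in exposed libraries, against 20.9, 20.9, 19.8 and 17.1 CPM in controls. In exposed libraries 2 of 3 values were below all 4 controls, and the groups overlapped through replicate 3, as they did for all 8 markers at this dose, while 6.62% of all genes had groups that did not overlap. The log2 fold change was -0.35 (SE 0.24, 95% interval -0.86 to 0.16, edgeR adjusted p = 1). The difference between the responses, high dose minus low dose, was 1.203 on the log2 scale for Tbr1 (SE 0.34), with an edgeR unadjusted p of 0.00362 and an adjusted p of 0.577. In this test 0 of 8 markers passed, beside 0.00573% of all genes, and Tbr1 was the 1 marker with an unadjusted p under 0.05, beside 5.99% of all genes. No other tool called a marker for it: the smallest adjusted p of Tbr1 over its 22 alternatives was 0.148, in DESeq2. The sets also differed in sex-linked genes, so dose, set and sex cannot be told apart in this difference.

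Promoter sequences of the marker that differed most (Tbr1), of the marker most restricted to these cells (Tbx21) and of the olfactory cadherin (Cdhr1) are given here for the motifs of factors that mitral and tufted cells express. They are the 250 bases before the start of the gene in RefSeq, build GRCm38.p6, read 5′ to 3′ on the strand of the gene, and capitals mark the motifs found. Tbr1 is at chr2:61804203-61804452 on the plus strand, Tbx21 at chr11:97115332-97115581 on the minus strand and Cdhr1 at chr14:37098348-37098597 on the minus strand. The Tbr1 window lies upstream of the main coding transcript but within an exon of a short transcript of the gene that GENCODE M21 lists with no coding sequence.
Tbr1: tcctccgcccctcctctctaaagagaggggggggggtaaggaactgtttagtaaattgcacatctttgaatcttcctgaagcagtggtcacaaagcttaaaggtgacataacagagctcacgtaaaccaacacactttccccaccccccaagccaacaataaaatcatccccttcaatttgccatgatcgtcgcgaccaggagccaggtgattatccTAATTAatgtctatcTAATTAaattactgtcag
Tbx21: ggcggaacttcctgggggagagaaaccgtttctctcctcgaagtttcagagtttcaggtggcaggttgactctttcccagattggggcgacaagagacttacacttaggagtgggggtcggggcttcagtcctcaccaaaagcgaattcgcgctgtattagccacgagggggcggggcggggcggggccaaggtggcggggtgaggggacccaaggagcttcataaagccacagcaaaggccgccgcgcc
Cdhr1: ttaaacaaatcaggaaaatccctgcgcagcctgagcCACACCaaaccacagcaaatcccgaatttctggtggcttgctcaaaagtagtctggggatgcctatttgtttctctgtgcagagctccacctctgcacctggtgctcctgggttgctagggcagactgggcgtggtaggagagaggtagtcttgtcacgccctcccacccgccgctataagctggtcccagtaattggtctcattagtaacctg
Motifs were searched on both strands in 9 RefSeq promoters of the 8 markers (Slc17a6 has more than 1). TAATTA, a core that homeodomain factors of the LIM class bind and that reads the same on both strands, occurred at 2 places in the Tbr1 promoter and at 1 place in 1 of the Slc17a6 promoters. It was held by 4.84% of 32851 mouse promoters of this length. The half-site of T-box factors, TCACACC (reverse GGTGTGA), occurred in 0 of 9 marker promoters and in 3.33% of all promoters. Its shorter core CACACC (reverse GGTGTG), which lies within it, occurred in 1 of 9 (Cdhr1) and in 16.3% of all promoters. Such matches are letters in this window and do not show that a factor binds.

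Cdhr1 (ENSMUSG00000021803, chromosome 14, 37077850 to 37098311, minus strand) encodes a cadherin-family protein, also called protocadherin 21, of mitral and tufted cells and of photoreceptors. Low-dose libraries held 572, 565 and 553 CPM, against 534, 557, 537 and 569 CPM in their controls. High-dose libraries held 615, 587 and 630.4 CPM, against 624, 820.0 and 568 CPM in their controls. All 3 low-dose libraries were above the mean of their controls and all 3 high-dose libraries were below the mean of theirs, but the groups overlapped in both sets. The log2 fold changes were 0.04 at the low dose (SE 0.10) and -0.14 at the high dose (SE 0.11), with edgeR adjusted p of 1 and 0.801. Control replicate 2 held the highest value of the series. The high-dose value was 0.02 without it and -0.24 without control replicate 3. The difference between the responses was -0.17 (SE 0.15, edgeR adjusted p = 0.991).

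Slc17a7 and Slc17a6 encode the vesicular glutamate transporters VGLUT1 and VGLUT2, which fill synaptic vesicles with glutamate. Slc17a7 (ENSMUSG00000070570, chromosome 7, 45163921 to 45176138, plus strand) held 597, 599 and 600.4 CPM in low-dose libraries, against 623, 654, 630.0 and 569 CPM in controls. It held 746, 746 and 1061 CPM in high-dose libraries, against 721, 921 and 633 CPM in controls. High-dose replicate 3 was the highest library of the series for Slc17a7, and high-dose replicates 1 and 2 lay within the range of their controls. The log2 fold change at the high dose was 0.17 (SE 0.14, edgeR adjusted p = 0.817), and -0.01 without high-dose replicate 3. The low-dose value was -0.05 (SE 0.13, edgeR adjusted p = 1).

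Slc17a6 (ENSMUSG00000030500, chromosome 7, 51621830 to 51671125, plus strand) held 26.3, 22.6 and 27.4 CPM in low-dose libraries, against 26.7, 27.02, 25.5 and 24.4 CPM in controls. It held 21.6, 25.0 and 30.2 CPM in high-dose libraries, against 33.3, 31.0 and 22.6 CPM in controls. The exposed and control values were mixed in both sets. The log2 fold changes were -0.03 at the low dose (SE 0.14) and -0.18 at the high dose (SE 0.15), with edgeR adjusted p of 1 and 0.81.

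The ratio of the transporters within a library needs no scaling between libraries. On the deposited FPKM values, Slc17a7 stood 50.7, 43.9 and 51.6 times as high as Slc17a6 in high-dose libraries, against 31.8, 43.7 and 41.1 times in their controls. The high-dose ratios all lay above the control ratios, though high-dose replicate 2 (43.9) and control replicate 2 (43.7) were nearly equal. The mean ratios were 48.7 ± 4.21 in high-dose and 38.9 ± 6.26 in control libraries (SD, n = 3 each), a difference of 0.336 on the log2 scale (SE 0.159). With 1 library left out in turn, that difference ran from 0.198 (without control replicate 1) to 0.427 (without control replicate 2). The exact two-sided permutation p was 0.1, the smallest that 3 against 3 libraries can give. At the low dose the ratios were 33.3, 38.9 and 32.2 in exposed libraries, against 34.3, 35.6, 36.3 and 34.2 in controls. These ratios overlapped, with a difference of -0.018 on the log2 scale (SE 0.0868) and an exact permutation p of 0.914, where 0.0571 is the smallest possible.

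Reln (ENSMUSG00000042453, chromosome 5, 21884454 to 22344702, minus strand) encodes reelin, the secreted glycoprotein that guides the layering of neurons in the developing brain and is made by mitral and tufted cells in the adult bulb. Low-dose libraries held 875, 884 and 854 CPM, against 844, 807, 812 and 874 CPM in their controls. High-dose libraries held 708, 822 and 663 CPM, against 762, 715 and 791 CPM in their controls. In the low-dose group 2 of 3 libraries were above all controls, while the high-dose libraries lay on both sides of theirs. The log2 fold changes were 0.06 at the low dose (SE 0.08) and -0.05 at the high dose (SE 0.09), with edgeR adjusted p of 1 and 0.942.

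Nrp1 (ENSMUSG00000025810, chromosome 8, 128359073 to 128505462, plus strand) encodes neuropilin 1, a receptor for class 3 semaphorins and a co-receptor for vascular endothelial growth factor, which endothelial cells also express. Low-dose libraries held 52.98, 57.3 and 55.8 CPM, against 56.99, 61.1, 54.1 and 53.2 CPM in their controls. High-dose libraries held 46.8, 57.2 and 47.8 CPM, against 54.2, 53.7 and 45.9 CPM in their controls. The log2 fold change was near 0 at both doses, -0.03 at the low dose (SE 0.09) and -0.02 at the high dose (SE 0.10), with edgeR adjusted p of 1 and 0.986. Of all 8 markers, Nrp1 and Reln varied least across the 13 libraries, by 1.33 times from the lowest to the highest CPM.

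**Figure D2:**
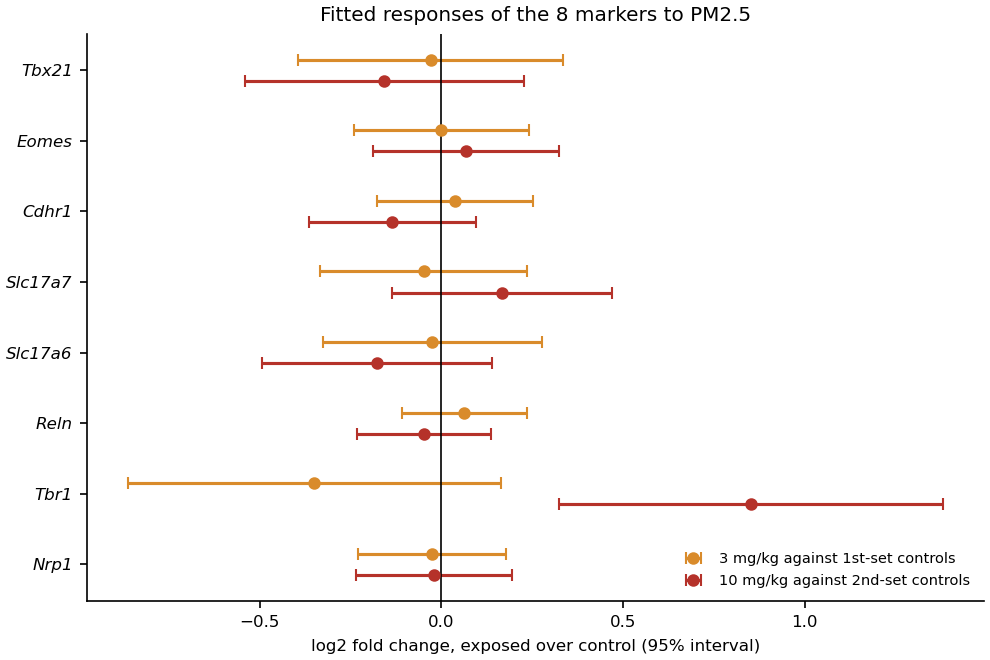
Log2 fold change of each marker, exposed over control, with its 95% interval from edgeR, for the low dose (upper symbol of each pair) and the high dose (lower symbol). The intervals of 7 markers cross 0 at both doses, and that of Tbr1 at the high dose runs from 0.32 to 1.38.

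The intervals come from a single fit in which both sets share an estimate of spread, though libraries of the 2nd set differed more. For Slc17a7 the SD of log2 CPM was 0.294 in high-dose libraries and 0.274 in their controls. It was 0.00452 in low-dose libraries and 0.0848 in their controls. High-dose intervals can thus be too narrow, and they set no firm bound on how far a marker moved. At the low dose the 95% intervals of the fold changes of the 7 markers other than Tbr1 all lay between 0.761 and 1.26. At the high dose those of the same 7 markers all lay between 0.687 and 1.38. The interval of the Tbr1 fold was 0.55 to 1.12 at the low dose and 1.25 to 2.6 at the high dose. Counted by direction, 2 of 8 markers had a positive log2 fold change at the low dose (median -0.03), where 50.9% of all genes were positive with a median of 0.00. At the high dose 3 of 8 were positive (median -0.03), where 47.2% of all genes were positive with a median of -0.01. The summed CPM of the 8 markers was 2230 to 2270 in low-dose libraries and 2200 to 2240 in their controls. It was 2290 to 2620 in high-dose libraries and 2180 to 2710 in their controls, with high-dose replicate 3 and control replicate 2 at the top of their groups. Without control replicate 2, 5 of 8 markers were positive at the high dose, and without high-dose replicate 3 as well 6 of 8 were. Control replicate 2 was the highest control for Tbx21, Eomes, Cdhr1 and Slc17a7, so leaving it out raises their values. Leaving out control replicate 3, the lowest for these genes, moved them the other way: Tbx21 was -0.31, Cdhr1 -0.24 and Eomes -0.06. The count of positive markers is not given for that removal.

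**Figure D3:**
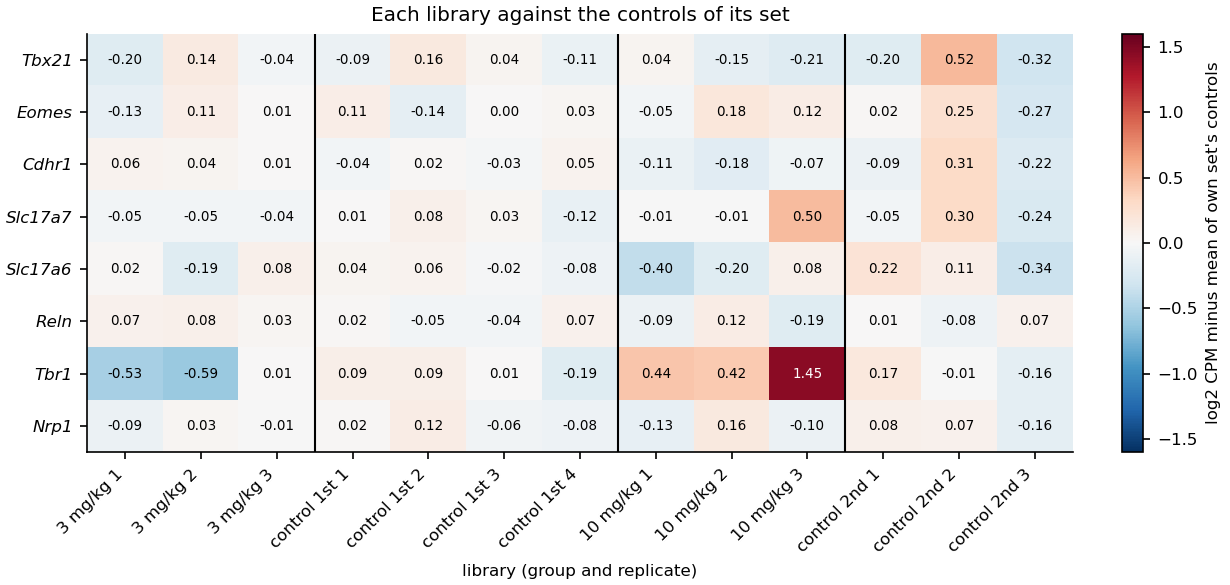
Log2 CPM of each marker in each library minus the mean of the controls of the same set, with exposed libraries left of the controls of their set and a red to blue scale of log2 units. Tbr1 in high-dose replicate 3 (1.45) is the largest value, and control replicate 2 of the 2nd set is positive for 6 of the 8 markers.

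Single libraries of the 2nd set carried much of the spread. Against the mean of the controls of its set, control replicate 2 stood at 0.52 log2 units for Tbx21, 0.31 for Cdhr1, 0.30 for Slc17a7 and 0.25 for Eomes. Control replicate 3 stood at -0.32 for Tbx21, -0.22 for Cdhr1, -0.24 for Slc17a7 and -0.27 for Eomes. The group spread of Tbx21 was accordingly wide, with a CV of 33.3% in controls of the 2nd set, against 9.52% in high-dose libraries, 12% in low-dose libraries and 9.01% in controls of the 1st set. With both outlying libraries of the 2nd set left out, a choice made after seeing the data, the high-dose log2 fold change was 0.20 for Tbx21 and 0.000417 for Cdhr1.

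Levels of different genes were compared on the deposited FPKM, which is per length. Slc17a7 was the most abundant marker, with 199 to 354 FPKM over the 13 libraries and a median of 218 FPKM. Cdhr1 followed with 126 to 183 FPKM, and Reln with 24.2 to 33.4 FPKM. These 3 kept this order in 13 of 13 libraries, with no overlap of their ranges. Eomes (10.6 to 14.8 FPKM) and Tbx21 (9.72 to 16.8 FPKM) were not separated: Eomes was above Tbx21 in 10 of 13 libraries, by a ratio of 0.884 to 1.34. Nrp1 (7.71 to 10.5 FPKM) was above Slc17a6 (4.93 to 7.63 FPKM) in 13 of 13 libraries. Tbr1 was lowest in 12 of 13 libraries, with 1.9 to 8.01 FPKM, and was the sixth of the 8 in high-dose replicate 3.

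The length behind the FPKM set part of this order. It was recovered from counts and FPKM as 26866 bases for Reln, 7142 for Eomes, 6863 for Tbr1 and 5907 for Nrp1, against 11699, 3560, 3977 and 3645 bases in the longest annotated transcript of each (GENCODE M21). For Tbx21 both were 2488 bases, and they were 2939 and 3080 for Slc17a7, 4319 and 4137 for Slc17a6, and 4303 and 4332 for Cdhr1. Per kilobase of the longest transcript, a scale chosen after seeing the data, Reln stood at 55.6 to 76.7 and Eomes at 21.3 to 29.7 per kilobase in CPM. On that scale Nrp1 (12.5 to 16.9) was above Tbx21 (9.72 to 16.8) in 12 of 13 libraries, while on the FPKM scale Tbx21 was above Nrp1 in 13 of 13. The order Slc17a7, Cdhr1, Reln held in 13 of 13 libraries on both scales, and Eomes came after Reln in 13 of 13 libraries on the longest-transcript scale. On that scale Tbr1 was the lowest marker in 10 of 13 libraries and was above Slc17a6 in all 3 high-dose libraries, against 1 of 3 on the FPKM scale.

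**Figure D4:**
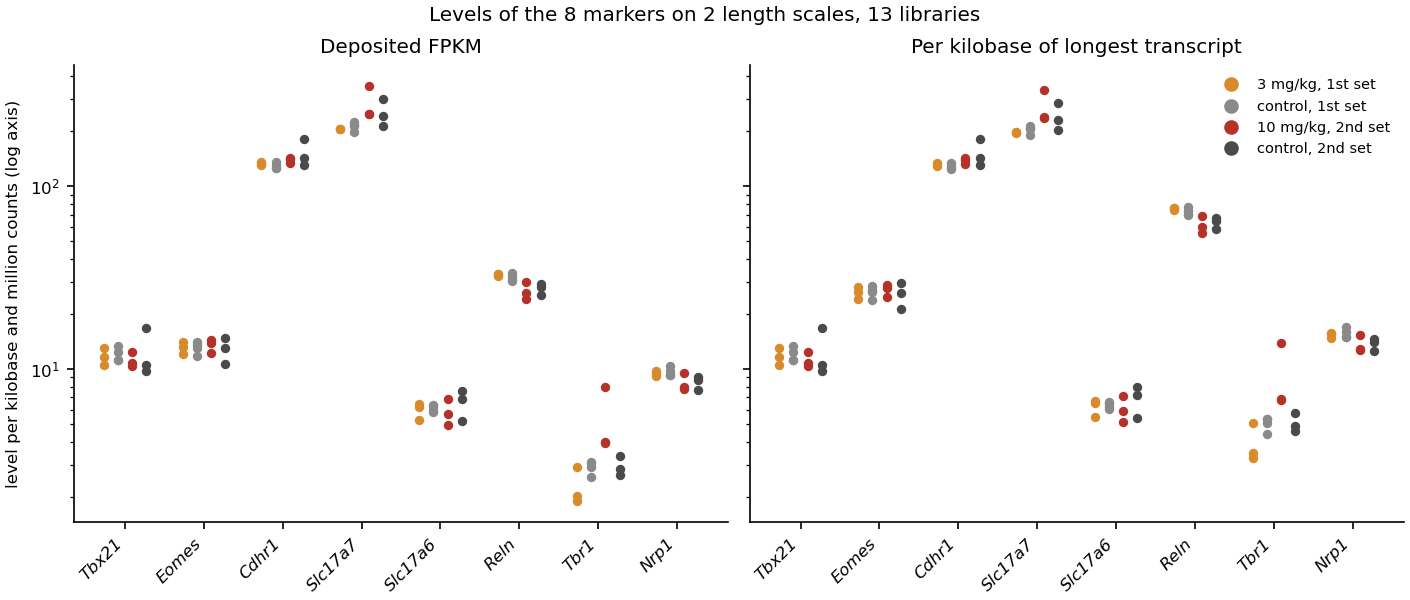
Levels of the 8 markers normalised to length and depth, on a log axis, from the deposited FPKM (left) and per kilobase of the longest annotated transcript (right), with a point per library coloured by group. Slc17a7 and Cdhr1 are highest on both scales, at 126 to 354 FPKM, and the order of Nrp1 and Tbx21 differs between the scales.

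Between the sets, the unexposed libraries differed widely, which is why levels were not compared across sets as an effect of dose. By Xist and Y-linked genes the 1st set read as female and the 2nd as male, so set and sex cannot be told apart here. Of all genes tested, 19.3% were called between controls of the 2nd set and controls of the 1st set, and 0 of 8 markers were called. By unadjusted p under 0.05, 2 of 8 markers (Cdhr1 and Slc17a7) and 35.7% of all genes stood out in edgeR. The log2 difference, 2nd minus 1st set, was 0.29 for Cdhr1 (SE 0.10, edgeR adjusted p = 0.0576) and 0.29 for Slc17a7 (SE 0.13, edgeR adjusted p = 0.128). DESeq2 called Cdhr1 at an adjusted p of 0.0366, beside 22.7% of all genes. With control replicate 3 of the 2nd set left out, edgeR gave an adjusted p of 0.0117 for Cdhr1 and 0.0437 for Slc17a7.

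The Tbr1 values were read beside genes of neighbouring excitatory neurons. A list of 12 genes of the anterior olfactory nucleus and cortex was measured in full, none at 0 in any library. The median log2 fold change was 0.26 at the high dose, with 8 of 12 positive, and -0.11 at the low dose, with 4 of 12 positive. In edgeR 0 of 12 were called at the high dose and 5 of 12 had an unadjusted p under 0.05, beside 9.65% of all genes, while DESeq2 called 1 of 12 (Neurod2), beside 1.67%. Without high-dose replicate 3 the count by unadjusted p was 3 of 12, and without control replicate 2 as well it was 2 of 12. The shares over all genes were then 9.79% and 11.6%. The median of the list did not fall in the same way: it was 0.29 and 0.23 in these fits, with 9 of 12 positive in each. Neurod2, a basic helix-loop-helix factor of excitatory forebrain neurons, stood at 13, 7.04 and 19.6 CPM in high-dose libraries, against 6.77, 5.91 and 4.07 CPM in their controls. Its log2 fold change was 1.25 (SE 0.36, edgeR adjusted p = 0.182), and 0.86 without high-dose replicate 3 (edgeR adjusted p = 0.413).

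The list did not move evenly over the high-dose libraries. Its mean log2 difference from the controls was 0.47, 0.00 and 0.86 in high-dose replicates 1, 2 and 3, and 11, 7 and 10 of the 12 genes were above the control mean there. The differences of Tbr1 in the same libraries were 0.44, 0.42 and 1.45. Both were largest in replicate 3, whereas in replicate 2 the list stood at the control mean and Tbr1 did not. The summed CPM of the list was 561 to 688 in high-dose libraries and 563 to 569 in controls. In replicate 3, 7 of 12 genes of the list had their highest value of the set, as did 6 of 7 genes of a striatum list. This was not particular to these 2 lists: 5 of 6 oligodendrocyte, 4 of 6 microglia and 4 of 7 astrocyte genes also peaked there. In contrast, 1 of 17 granule cell and interneuron genes and 0 of 5 dopaminergic genes did. The share over all genes was not computed. The mean difference of the striatum list was 1.01 in replicate 3 and -0.02 and -0.08 in replicates 1 and 2, and its summed CPM was 117 to 158 in high-dose libraries and 102 to 103 in controls. None of its 7 genes was called by edgeR, DESeq2 or limma, and 2 had an unadjusted p under 0.05 in edgeR, beside 9.65% of all genes. The median log2 fold change of the striatum list was 0.26, with 5 of 7 positive, 0.08 without high-dose replicate 3, and -0.10 without control replicate 2 as well. With replicate 3 left out, the log2 fold change of Tbr1 was 0.44 (SE 0.17, edgeR adjusted p = 0.388), and with control replicate 2 left out as well it was 0.40 (adjusted p = 0.426). At the low dose the mean difference of the list was -0.01, -0.28 and -0.13 in replicates 1, 2 and 3, where Tbr1 stood at -0.53, -0.59 and 0.01. The part of these genes in the Tbr1 result was not tested.

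**Figure D5:**
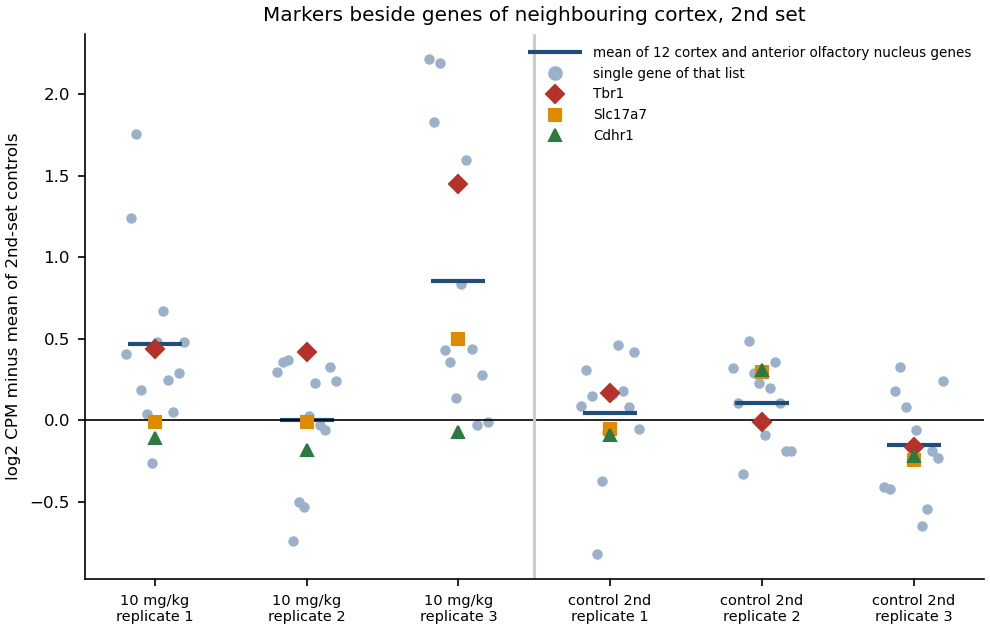
Tbr1, Slc17a7 and Cdhr1 in each library of the 2nd set beside the 12 genes of the anterior olfactory nucleus and cortex list (small points, mean as a bar), as log2 CPM minus the mean of the 3 controls. In high-dose replicate 3 Tbr1 (1.45), Slc17a7 (0.50) and the mean of the list (0.86) are all high, and Cdhr1 (-0.07) is not.

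Whether markers varied together was measured on deviations of log2 CPM from the group mean over the 13 libraries. Of 28 pairs of markers, 20 had a positive Pearson r (median 0.32), and no pair had an adjusted permutation p under 0.05 by r or by Spearman rho. The smallest p was that of Slc17a6 and Tbr1, with r = 0.74, rho = 0.81, and a permutation p of 0.00231 (0.0648 adjusted over the 28 pairs). That r was 0.79 without the 2 libraries farthest from the median, and 0.78 and 0.74 within the 1st and 2nd set. Slc17a7 and Reln were opposed, with r = -0.78, rho = -0.76 and a permutation p of 0.0376 (adjusted 0.457), and r = -0.60 without the 2 farthest libraries. Tbx21 and Cdhr1 had r = 0.81 and rho = 0.39 (permutation p = 0.131, adjusted 0.564), which rested on controls 2 and 3 of the 2nd set: without them r was 0.21.

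Genes whose deviations were most like the mean of Tbx21, Eomes and Cdhr1 were ranked over 16030 genes. The highest Pearson r over the 13 libraries were those of Mafa (0.95), Pnrc1 (0.938), Shisa8 (0.927), Rad21 (0.927), Desi1 (0.925) and Npr1 (0.917). Without controls 2 and 3 of the 2nd set, the r of Mafa was 0.91 and that of Desi1 was 0.17. Other genes known from mitral and tufted cells ranked from 11 for Doc2g (r = 0.90), which encodes a double C2-domain protein, and 29 for Shisa3 (r = 0.88) to 8109 for Nts (r = 0.07), the gene of neurotensin. Nmb ranked 3254 and Kcng1 7385. The mean of the 3 markers deviated most in controls 2 (0.36) and 3 (-0.27) of the 2nd set. Doc2g held 285 CPM in control 2 and 177 and 170 CPM in controls 1 and 3. Shisa3 held 121, 90.5 and 86 CPM there. Their r without controls 2 and 3 was not computed. For single markers the highest r were 0.963 (Cxxc5) and 0.952 (Cygb) for Tbx21, 0.976 (Gal) and 0.952 (Ap1s2) for Eomes, and 0.981 (Ormdl1) and 0.967 (Desi1) for Cdhr1. They were 0.975 (Tubb4b) and 0.974 (Golga7b) for Slc17a7, 0.94 (Cnn2 and Coch) for Slc17a6, and 0.929 (Anapc1) and 0.927 (Gsap) for Reln. For Tbr1 they were 0.924 (Kif5c) and 0.92 (Syt13), and for Nrp1 0.924 (Cuedc1) and 0.918 (Scn7a). Without the 2 libraries farthest from the median of each marker, these r ran from 0.69 (Desi1 for Cdhr1) to 0.94 (Cxxc5 for Tbx21, Gal for Eomes). All these genes were picked as the highest of 16030, which by itself makes high r likely over 13 libraries, and no r was tested.

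Further genes known from mitral and tufted cells were counted from a list of 15, of which 14 were in the table and 13 passed the filter. In edgeR 0 of 13 were called at either dose, 2 at the high dose and 0 at the low dose had an unadjusted p under 0.05, and neither DESeq2 nor limma called any. Over all genes 9.65% at the high dose and 2.46% at the low dose had such an unadjusted p in edgeR. The median log2 fold change was 0.03 at the low dose, with 8 of 13 positive, and -0.07 at the high dose, with 5 of 13 positive. Nmb, the gene of neuromedin B, held 17.4, 23.0 and 26.1 CPM in high-dose libraries, against 32.4, 42.6 and 27.2 CPM in controls. All high-dose values of Nmb lay below the controls (log2 fold change -0.62, SE 0.21, edgeR adjusted p = 0.262), though the nearest values, 26.1 and 27.2 CPM, were close. Of all genes, 4.36% had high-dose values that all lay below the controls. Kcng1, a potassium channel subunit, held 16.1, 9.26 and 19.3 CPM, against 9.34, 10.4 and 8.95 CPM in controls (log2 fold change 0.64, SE 0.27, edgeR adjusted p = 0.427), and its log2 fold change was 0.42 without high-dose replicate 3. Control replicate 2 was the highest library of the set for 8 of the 13 genes, and without it 9 of 13 were positive (median 0.14).

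Genes that act with the markers were counted in the same way. Of 12 reelin signalling genes, edgeR, DESeq2 and limma called 0 at either dose, with medians of 0.02 at the low and 0.03 at the high dose. In edgeR 1 of them, Efnb3 (ephrin B3, a membrane-bound ligand), had an unadjusted p under 0.05 at the high dose, where it stood 0.25 log2 units above its controls (SE 0.09, adjusted p = 0.302). Over all genes 9.65% had such an unadjusted p at that dose. Vldlr, a reelin receptor, stood at 0.14 (SE 0.09, edgeR adjusted p = 0.714). Of 16 neuropilin, plexin, semaphorin and vascular growth factor genes, these tools called 0 at either dose, with medians of -0.09 and 0.10, and edgeR gave 2 and 3 with an unadjusted p under 0.05. The shares over all genes were 2.46% and 9.65%. Plxnd1, a receptor for semaphorin 3E, differed from its controls by -0.51 at the low dose (SE 0.22, edgeR adjusted p = 1) and 0.71 at the high dose (SE 0.23, edgeR adjusted p = 0.249), the second being 0.48 without high-dose replicate 3 and 0.39 without control replicate 2 as well. Plxna4, which signals with neuropilins, stood at 0.25 at the high dose (SE 0.10, edgeR adjusted p = 0.37) and at 0.14 without control replicate 2. Without that library the median of the list was -0.01.

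Of 15 tested genes of glutamate release and uptake, the 3 tools called 0 at either dose, and the medians were 0.00 at the low and -0.10 at the high dose. By unadjusted p under 0.05 in edgeR the counts were 0 and 2 of 15, beside 2.46% and 9.65% of all genes. Slc1a2, the main glial glutamate transporter, had a high-dose log2 fold change of 0.34 (SE 0.14, edgeR adjusted p = 0.389; 0.20 without control replicate 2), and Slc1a1, a neuronal one, of -0.16 (SE 0.07, edgeR adjusted p = 0.501). Of 14 other T-box genes 7 passed the filter. In all 3 tools 0 of these 7 were called at either dose, 0 had an unadjusted p under 0.05, and the medians were -0.07 and 0.11. Mga, which encodes a partner of Max, stood at 0.13 at the high dose (SE 0.12, edgeR adjusted p = 0.834), and Tbx1 at 0.74 (SE 0.48, edgeR adjusted p = 0.723). Without control replicate 2 Mga stood at 0.02 and Tbx1 at 1.21 (edgeR adjusted p = 0.354).

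Markers of other cells of the bulb were called by edgeR at the high dose in 2 lists, 1 of 7 astrocyte and 2 of 12 endothelial genes, and in none at the low dose. Over all genes edgeR called 0.641% at the high dose and 0% at the low dose. DESeq2 called 2 of 7 astrocyte (Gfap and Gjb6) and 2 of 12 endothelial genes (Slc2a1 and Vwf) at the high dose, beside 1.67%. For limma the calls were 1 of 7 (Gfap) and 1 of 12 (Slc2a1, not Vwf), beside 0.353%. Gfap, the intermediate filament of astrocytes, rose by 1.36 on the log2 scale (SE 0.16, edgeR adjusted p = 0.00171), with 524, 646 and 450.0 CPM in high-dose libraries, against 204, 247 and 181 CPM in controls. In the endothelial list, Slc2a1, the glucose transporter of the blood-brain barrier, rose by 0.86 on that scale (SE 0.13, edgeR adjusted p = 0.00845) and Vwf, the von Willebrand factor, by 1.71 (SE 0.28, edgeR adjusted p = 0.0152). Positive values at the high dose numbered 8 of 12 in the endothelial list (median 0.13) and 6 of 7 in the astrocyte list (median 0.19). The endothelial genes Tek (-0.46), Tie1 (-0.38), Emcn (-0.19) and Pecam1 (-0.01) were negative. Without both high-dose replicate 3 and control replicate 2, Gfap and Vwf still passed, and Slc2a1 did not (0.75, edgeR adjusted p = 0.0686). The list of granule cells and interneurons, the local inhibitory cells that contact mitral and tufted dendrites, was measured in full. None of its 17 genes was called by the 3 tools at either dose, though 14 of 17 had a positive log2 fold change at the low dose (median 0.10) and 1 of 17 at the high dose (median -0.14). By unadjusted p under 0.05 in edgeR the counts were 0 and 4 of 17, beside 2.46% and 9.65% of all genes. Control replicate 2 was the highest of the 2nd set for 12 of the 17. Without that library 6 of 17 were positive at the high dose (median -0.06), and without high-dose replicate 3 as well 8 of 17 were. Sp8, a zinc finger factor of interneurons, held 124, 160 and 132 CPM in high-dose libraries, against 172, 206 and 167 CPM in controls (log2 fold change -0.39, SE 0.11, edgeR adjusted p = 0.161).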

How the data were processed

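Per the labels' protocols, total RNA of olfactory bulb was isolated with an RNeasy kit and made into strand-specific TruSeq Stranded Total RNA libraries. The submitters' processing notes name HISAT2 and mm10, both with no version. No label names the counting program, the annotation or the strand setting. The authors deposited raw counts per gene and an FPKM value per gene for each library. Dividing counts by FPKM and depth gave 1 constant length per gene (largest relative deviation 8.75e-06), so the FPKM carries no scaling between libraries beyond depth. Gene coordinates are those of the deposited table, and strands and transcript lengths are from GENCODE M21, an annotation of the same genome build.

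Counts were fitted with edgeR 4.0.16 in R 4.3.3 after TMM scaling and filterByExpr by group. A single robust quasi-likelihood model of 4 groups covered the 13 libraries, with 9 residual degrees of freedom. Benjamini-Hochberg adjustment ran over the 17467 genes kept, with a threshold of 0.05. CPM values are TMM-scaled. SE is approximate, taken from the log2 fold change and its F value, and 95% intervals use it. Correlations were tested over 5184 arrangements of libraries within groups. Alternatives were DESeq2 1.42.0, limma 3.58.1 on log2(FPKM + 1) and log2(FPKM + 0.1), other size factors and filters, a separate fit per set, a replicate block and each library left out.

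The markers, the 16 lists beside them and the tests were chosen with earlier results of these data known. All 8 markers are named. Of each other list, the genes past the test are named, or otherwise up to 2 with the smallest p at the high dose, with Doc2g, Shisa3 and Nts added after their values were seen. Some genes that this rule selects are not reported here. The genes most like the markers are those with the highest r and a mean of at least 1 CPM, leaving out bare gene-model names. Within groups the lowest chi-square per gene between 2 libraries was 6.1, so no pair agreed within sampling noise. Promoters are from RefSeq, GRCm38.p6, and all 8 markers matched.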

Additional observations from a re-analysis of the deposited data

Results flagged for a closer look

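Cdhr1, the cadherin-family marker of mitral and tufted cells, is given again because its exposed groups lay on opposite sides of their controls. All 3 low-dose libraries were above the mean of the controls of the 1st set, and all 3 high-dose libraries were below the control mean of the 2nd set. Between the responses the difference, high dose minus low dose, was -0.17 on the log2 scale with an edgeR adjusted p of 0.991. Without control replicate 2 of the 2nd set it was -0.02, and without control replicate 3 of that set it was -0.28. The sets also differed in sex-linked genes, so dose, set and sex cannot be told apart in it. No marker had an outlying library in the group of 4 controls of the 1st set by Dixon's criterion (0.829), which flags about 1 in 20 groups by chance; groups of 3 were not tested in this way.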

How the results depend on the processing

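Over 888 alternative values of the 8 markers in 5 contrasts (each dose, their difference and mean, and the control sets), 826 kept direction and call, 57 changed sign and 5 passed the threshold. Those 5 were Tbr1 at the high dose in DESeq2, Cdhr1 between control sets with no filter on low counts (adjusted p = 0.0246), in DESeq2 and with control 3 of the 2nd set left out, and Slc17a7 between control sets with that library left out.

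The sign changes were in log2 fold changes near 0 or resting on 1 library, as follows. With 1 library left out in turn, low-dose values ran from -0.128 to 0.0493 for Tbx21, -0.0644 to 0.0601 for Eomes, -0.0906 to 0.0481 for Slc17a6 and -0.0567 to 0.0153 for Nrp1. High-dose values ran from -0.312 to 0.137 for Tbx21, -0.0584 to 0.186 for Eomes, -0.242 to 0.0162 for Cdhr1, -0.00725 to 0.308 for Slc17a7, -0.147 to 0.029 for Reln and -0.121 to 0.0373 for Nrp1. For the difference of the responses they ran from -0.282 to 0.167 for Tbx21, -0.058 to 0.187 for Eomes and -0.0947 to 0.0637 for Nrp1. For the mean of the responses they ran from -0.171 to 0.0534 for Tbx21, -0.0294 to 0.0927 for Eomes, -0.103 to 0.0265 for Cdhr1, -0.0282 to 0.129 for Slc17a7, -0.0424 to 0.0456 for Reln and -0.0736 to 0.00545 for Nrp1. Between control sets they ran from -0.2002 to 0.26 for Tbx21, -0.109 to 0.147 for Eomes and -0.0529 to 0.141 for Tbr1. The low-dose log2 difference in the Slc17a7 to Slc17a6 ratio ran from -0.101 to 0.0363 and the high-dose one from 0.198 to 0.427. Tbr1 ran from 0.436 to 1.02 at the high dose and from -0.577 to -0.245 at the low dose.

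Leaving out both control replicate 2 of the 2nd set and high-dose replicate 3, Tbx21 was 0.196 at the high dose, 0.230 in the difference, 0.0813 in the mean and -0.193 between control sets. Cdhr1 was then 0.000417 at the high dose and 0.0168 in the mean, Nrp1 0.0436 and 0.00675, and Eomes -0.101 between control sets. With no filter on low counts, Eomes at the low dose was 0.000342 and Nrp1 in the difference -0.00631. Between control sets Eomes was -0.0469 with upper-quartile factors, -0.017 with at least 1 CPM in every library, -0.0449 on log2(FPKM + 1) and -0.0487 on log2(FPKM + 0.1); Tbr1 was -0.00174 with upper-quartile factors and Tbx21 -0.00058 on log2(FPKM + 0.1). The cause of these sign changes was not tested.

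Counts of genes called moved more. At the low dose the count was 0 in edgeR, 19 in DESeq2, 2 on log2(FPKM + 1), 9 in a separate fit, 1 without both libraries and 0 to 2 with 1 library left out. At the high dose it was 112, against 291 in DESeq2, 71 on log2(FPKM + 1), 69 on log2(FPKM + 0.1), 69 with at least 1 CPM in every library and 4 in a separate fit. With 1 library left out it ran from 21 (control replicate 3 of the 2nd set) to 138, and it was 65 when high-dose replicate 2 and 70 when control 2 of the 1st set was left out. For the difference it was 1, against 2 with no filter, 17 in DESeq2, 0 on log2(FPKM + 1) and 0 to 6 with 1 library left out. For the mean it was 86, against 195 in DESeq2, 56 on log2(FPKM + 1), 44 with at least 1 CPM in every library and 36 to 93 with 1 library left out. Between control sets it was 3364, and 1340 (control replicate 2 of the 2nd set) to 4073 with 1 library left out.

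Deviations of same-numbered exposed and control libraries correlated at 0.0103, 0.0578 and 0.0151 at the low dose and at 0.135, -0.136 and -0.318 at the high dose. Differently numbered libraries correlated at -0.0641 to 0.0554 and at -0.363 to 0.435. So few values cannot tell whether replicate numbers pair the libraries. With a replicate block within each set, 5 genes were called at the high dose, 5 for the mean and 0 for the difference, no marker was called, Tbr1 at the high dose was 0.77 (adjusted p = 0.523) and Eomes at the low dose was 0.0105. Each marker value rests on 187 counts or more, and each group on 3 or 4 libraries.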

Other observations

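Lists of further cell types of the bulb held no gene past edgeR's threshold at either dose. Olfactory sensory neuron axons, which contact mitral and tufted dendrites, carried 10 listed genes, of which 0 had a positive log2 fold change at the low dose (median -0.23) and 5 at the high dose (median -0.01). Of these Gnal, the olfactory G protein alpha subunit, stood at 80.9, 77.7 and 132 CPM in high-dose libraries, against 87.0, 66.3 and 61.5 CPM in controls (log2 fold change 0.44, SE 0.18, edgeR adjusted p = 0.404). Gnal had the 1 unadjusted p under 0.05 of the list in edgeR at the high dose, beside 9.65% of all genes. Without high-dose replicate 3 the log2 fold change of Gnal was 0.16 (edgeR adjusted p = 0.758). Of 7 genes of olfactory ensheathing cells, which wrap those axons, 0 were positive at the low dose (median -0.20) and 6 at the high dose (median 0.11). Of 6 oligodendrocyte genes, 0 were positive at the low dose (median -0.20) and 4 at the high dose (median 0.02), or 1 without high-dose replicate 3 (median -0.14).

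Dopaminergic periglomerular cells carried 5 genes with medians of 0.07 at the low and 0.00 at the high dose. Ddc, the decarboxylase that makes dopamine, held 8.34, 9.51 and 8.5 CPM in high-dose libraries, against 6.38, 8.42 and 5.31 CPM in controls (log2 fold change 0.38, SE 0.17, edgeR adjusted p = 0.502), and was 0.57 without control replicate 2. Th, the tyrosine hydroxylase of dopamine synthesis, held 122, 134 and 166 CPM in high-dose libraries, against 155, 190.0 and 154 CPM in controls (log2 fold change -0.24, SE 0.12, edgeR adjusted p = 0.531), and was -0.36 without high-dose replicate 3 (adjusted p = 0.184). Microglia genes numbered 6, with medians of 0.03 and 0.23 (0.10 at the high dose without high-dose replicate 3), and pan-neuronal genes 8, with medians of 0.01 at both doses. By unadjusted p under 0.05 in edgeR, the dopaminergic list had 0 genes at the low and 1 (Ddc) at the high dose, and the ensheathing, oligodendrocyte, microglia and pan-neuronal lists had 0 at both. The shares over all genes were 2.46% at the low and 9.65% at the high dose. DESeq2 and limma called no gene of these lists.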
